A study of Mus musculus with 11 samples.

Results

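Metallothioneins and the main zinc and iron handling genes of the hippocampus are described here in offspring of mice exposed to particulate matter (PM) during pregnancy. The 10 genes are Mt1, Mt2, Mt3, Slc30a1, Slc30a3, Fth1, Ftl1, Tfrc, Slc40a1 and Slc11a2. They were taken by name from the 24421 gene rows of the count files, with no threshold on a value but with earlier results of these data known. All 10 were among the 14982 genes that passed the filter on low counts. The 11 libraries come from whole hippocampus of mice whose strain, sex and litter the labels do not give. Mothers received PM at 200 µg/kg or normal saline (vehicle) into the nose on gestational days 9, 12 and 15 and delivered on day 21, and offspring tissue was taken at 14 to 18 weeks of age. The 5 vehicle and 6 PM libraries were deposited in 2 sets. Replicates 1 to 3 of both groups belong to the first, and replicates 4 and 5 of vehicle with replicates 4 to 6 of PM to the second. Nothing in the labels says that libraries are separate animals or litters, so p-values measure the spread between these libraries, which may be technical.

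Metallothioneins are small cysteine-rich proteins that bind zinc and copper. Mt1 and Mt2 are induced in many cells, including astrocytes, through the zinc sensor MTF-1, whereas Mt3 is a brain form that responds little to metals. Cells export zinc through Slc30a1 (ZnT1), and glutamatergic neurons load it into synaptic vesicles through Slc30a3 (ZnT3), a transporter abundant in hippocampal mossy fibres. Iron enters through the transferrin receptor (Tfrc) and the divalent metal transporter Slc11a2 (DMT1), is stored in ferritin built of heavy (Fth1) and light (Ftl1) chains, and leaves through ferroportin (Slc40a1). Iron regulatory proteins bind stem-loops called iron-responsive elements in several of these mRNAs, where they block translation from the 5′ end or protect the mRNA at the 3′ end.

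The libraries differed between groups before any gene was tested. Gene counts ranged from 6012116 to 12496651 in vehicle libraries and from 10938521 to 17763893 in PM libraries. The share of counts with no feature was 60.9% to 62.0% in vehicle and 18.8% to 34.0% in PM libraries, without overlap (two-sided exact permutation test on the absolute difference of means, p = 0.0021645, the smallest that 462 splits can give). The PM effect also followed transcript size and base content over all genes. The median log2 fold change was 0.61 in the shortest of 5 equal groups of genes by transcript length and -0.81 in the longest, and it went from -0.50 in the lowest of 5 groups by GC content to 0.45 in the highest. For this reason fold changes are also given with a smooth trend on length and GC removed per library. Because the no-feature share separated the groups completely, an effect of PM cannot be told apart from a difference in library preparation or counting. Removing the trend does not change that. Words such as rose and fell below describe counts in PM against vehicle libraries. PM replicates 1 and 3 and vehicle replicate 5 stood apart in Ttr, a choroid plexus gene, at 1070 to 2406 CPM (counts scaled by library size with TMM) against 13.8 to 243 in the other 8 libraries. Xist, expressed from the inactive X of females, was 1.74 to 3.16 CPM in the vehicle libraries of the first set, 2278 and 2422 CPM in those of the second, and 16.7, 0.355, 207, 0.668, 0.582 and 919 CPM in PM replicates 1 to 6. In the second set both vehicle libraries were thus above all 3 PM libraries in Xist. If Xist marks sex here, an effect of PM in that set cannot be told apart from one of sex. A difference between sets among vehicle libraries cannot be told apart from one of sex either.

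Metal-response elements (MREs), bound by MTF-1, share the core TGCACNC or TGCGCNC, which was searched on both strands of promoter windows from RefSeq (build GRCm38.p6). A window was found for 8 of the 10 genes. In the 250 bases before the RefSeq start, Mt2 held 3 cores, 1 of them on the opposite strand, and Mt1 and Slc30a1 held 1 each. With the 50 bases after the start added the numbers were 4, 3 and 2, and Mt3 held 1. The numbers thus depend on where the start is placed, and bases beyond these 50 were not searched. The low number for Mt1 in the 250 bases does not show that the gene has few elements. Of all 32851 promoter windows, 21.4% held at least 1 core in the 250 bases and 1.26% held 3 or more, against 25.7% and 1.97% over 300 bases. No core was found for Fth1 or Ftl1, and Slc30a3 and Tfrc each had 1 start with cores and 1 without, the 2 cores of Tfrc overlapping each other. The upstream stretches of the classical MTF-1 targets are shown because Mt1 and Mt2 were higher and Slc30a1 lower in PM before the length and GC trend was removed, while only Mt2 passed after it. Cores are in capitals, and a core on the opposite strand appears as its reverse complement.
Mt1 (chr8:94178839-94179088, plus strand): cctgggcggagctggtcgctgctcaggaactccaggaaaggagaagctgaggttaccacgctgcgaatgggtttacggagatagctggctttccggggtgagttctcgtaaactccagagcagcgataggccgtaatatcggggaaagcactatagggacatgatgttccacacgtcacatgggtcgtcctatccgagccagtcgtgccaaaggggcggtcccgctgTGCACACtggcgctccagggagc
Mt2 (chr8:94172368-94172617, plus strand): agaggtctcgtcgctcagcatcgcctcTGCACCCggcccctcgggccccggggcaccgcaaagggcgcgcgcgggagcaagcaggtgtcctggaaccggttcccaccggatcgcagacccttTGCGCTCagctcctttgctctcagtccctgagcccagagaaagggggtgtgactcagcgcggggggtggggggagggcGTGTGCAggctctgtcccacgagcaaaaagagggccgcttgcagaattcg
Slc30a1 (chr1:191906531-191906780, plus strand): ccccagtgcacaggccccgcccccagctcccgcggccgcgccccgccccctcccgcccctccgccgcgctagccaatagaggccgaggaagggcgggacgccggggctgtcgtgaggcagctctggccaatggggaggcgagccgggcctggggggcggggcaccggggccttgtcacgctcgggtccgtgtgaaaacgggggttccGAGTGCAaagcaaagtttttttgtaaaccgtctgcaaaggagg

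Iron-responsive elements were searched in 1 GENCODE M21 transcript per gene as a C, 5 paired bases, the loop CAGTGN and the 5 pairing bases, a form that 0.847% of 23376 transcripts held. Among the 10 genes it occurred in 4. The sites of 27 bases are shown because they mark the 4 genes whose searched transcript held this form. Of these, Fth1, Ftl1 and Slc40a1 passed as higher in PM, as did 32.7% of all genes. Tfrc did not pass (log2 fold change 0.04, edgeR adjusted p = 0.72). Once the length and GC trend was removed all 4 passed as higher, as did 37.3% of all genes. Capitals mark the loop.
Fth1, 5′ UTR (chr19:9982733-9982759, plus strand): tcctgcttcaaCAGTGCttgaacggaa
Ftl1, 5′ UTR (chr7:45459780-45459806, minus strand): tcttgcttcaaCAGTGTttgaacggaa
Slc40a1, 5′ UTR (chr1:45925466-45925492, minus strand): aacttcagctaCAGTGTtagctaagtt
Tfrc, 3′ UTR (chr16:32631220-32631246, plus strand): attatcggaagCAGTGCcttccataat
Tfrc, 3′ UTR (chr16:32631599-32631625, plus strand): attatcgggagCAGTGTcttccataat
Tfrc, 3′ UTR (chr16:32631664-32631690, plus strand): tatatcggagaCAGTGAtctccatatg
Tfrc, 3′ UTR (chr16:32631711-32631737, plus strand): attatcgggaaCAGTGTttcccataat
Tfrc held 4 sites of this form and the other 3 genes 1 each. The Slc11a2 transcript used held none, which says nothing of its other isoforms.

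In PM libraries the metallothioneins Mt1, Mt2 and Mt3, both ferritin chains and ferroportin were higher, the zinc exporter Slc30a1 was lower, and Slc30a3, Tfrc and Slc11a2 did not pass the test. That is 6 of 10 higher and 1 lower by edgeR's quasi-likelihood test with Benjamini-Hochberg adjustment over all genes and the set as covariate. Over all tested genes 32.7% were higher and 36.4% lower by the same rule, so a call in itself is common here. The 10 genes were chosen with earlier results of these data known, so setting them beside all genes is no test. The median log2 fold change (PM over vehicle) was 0.48 over the 10 genes and -0.04 over all genes. All 6 PM libraries lay above all 5 vehicle libraries for 5 of the 10 (24.3% of all genes) and below them for 1 (28.1% of all genes). After removal of the length and GC trend, the split was 5 higher (37.3% of all genes) and 2 lower (26.7%), but the genes were not the same ones. Mt1 and Mt3 no longer passed and Tfrc joined the higher genes, while Slc30a1 no longer passed and Slc30a3 and Slc11a2 were the lower ones. Removing it raised the median of all genes by 0.14, to 0.10, against 0.48 for the 10 genes. In bulk tissue, fewer cells of a type and less RNA per cell cannot be told apart.

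**Figure D1:**
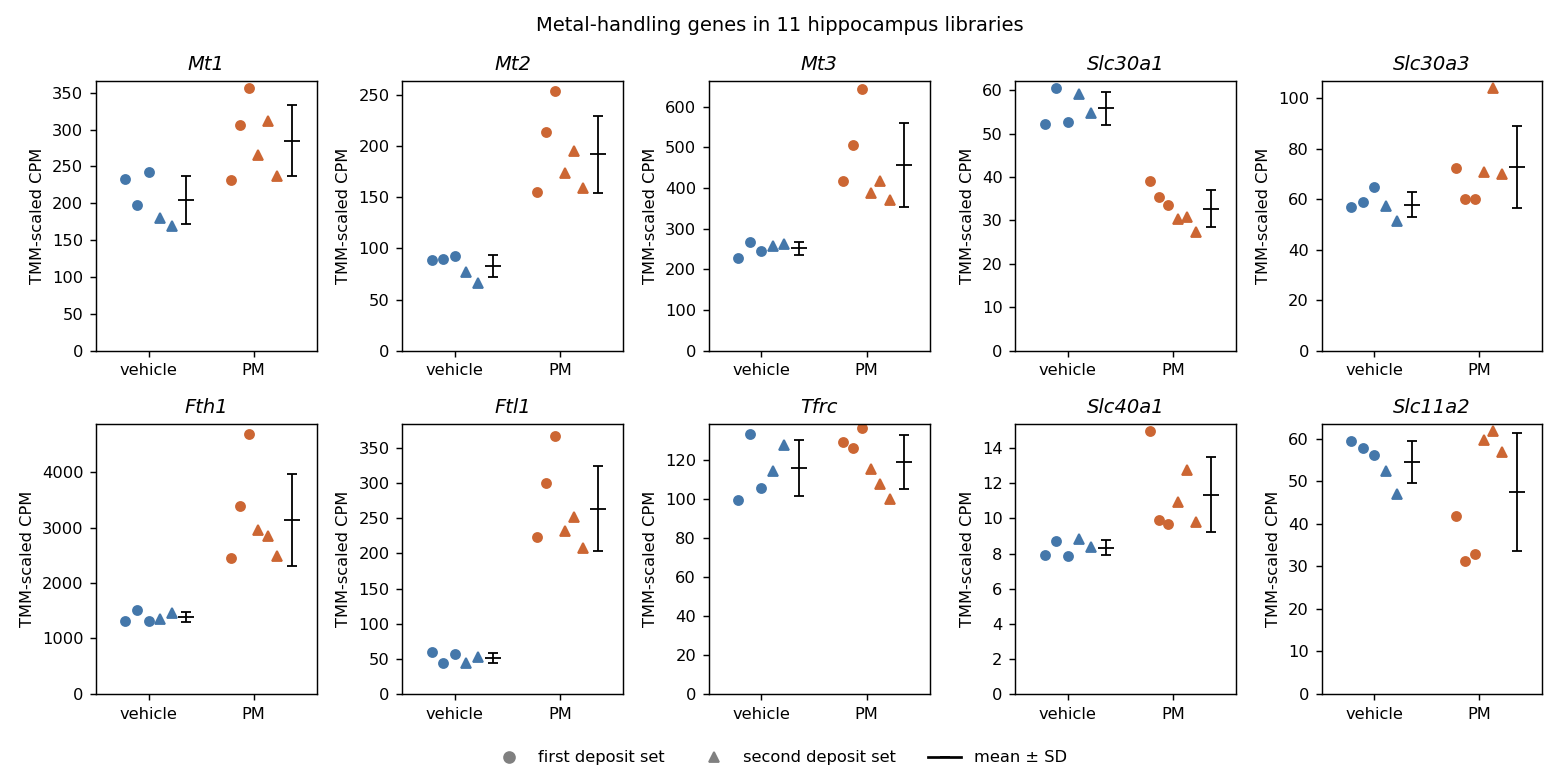
Level of each of the 10 genes in each library, as CPM on TMM-scaled library sizes (linear axes from 0), with vehicle in blue and PM in orange, circles for the first and triangles for the second deposit set, and black bars for the mean ± SD. Points of Mt2, Mt3, Fth1, Ftl1 and Slc40a1 do not overlap between groups and lie higher in PM, those of Slc30a1 lie lower, and the PM points of Slc11a2 split by set.

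Mt2 had the largest fold change of the 3 metallothioneins. It was 88.8, 89.7, 92.5, 77.2 and 66.6 CPM in vehicle replicates 1 to 5 and 155 to 254 CPM in PM libraries, with a median of 185. Every PM library was above every vehicle library. The mean went from 82.9 ± 10.9 CPM (SD, n = 5) up to 192 ± 37.7 CPM (SD, n = 6), which is a 2.36-fold rise (edgeR log2 fold change 1.24 with SE 0.12 and adjusted p = 6.2e-07). By set the rise was 1.20 and 1.30, and it was 0.85 after removal of the length and GC trend (SE 0.09, adjusted p = 2.6e-06). Mt2 lies on chromosome 8 (94172664 to 94173568, plus strand, GRCm38).

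Mt1, its neighbour on chromosome 8 (94179082 to 94180327, plus strand), had a smaller one. Its vehicle values were 233, 198, 242, 180 and 169 CPM, and PM ran from 232 to 356 CPM with a median of 286. PM replicate 1, at 232, fell among the vehicle libraries of the first set, so the groups overlapped. The mean went from 204 ± 32.0 to 285 ± 48.4 CPM (edgeR log2 fold change 0.51 with SE 0.12 and adjusted p = 0.0017). After removal of the length and GC trend the change was -0.05 (SE 0.09, adjusted p = 0.61), so the call for Mt1 does not stand under that setting.

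Mt3 (chromosome 8, 94152607 to 94154146, plus strand) was 228, 267, 245, 258 and 263 CPM in vehicle replicates. In PM it was 418, 505 and 642 CPM in replicates 1 to 3 and 387, 416 and 371 CPM in replicates 4 to 6. All PM libraries were above the vehicle range, and PM replicate 3 was the highest. The mean went from 252 ± 15.9 to 457 ± 102 CPM (edgeR log2 fold change 0.86 with SE 0.12 and adjusted p = 3.1e-05). By set the change was 1.08 and 0.59, a difference of -0.50 that did not pass (adjusted p = 0.058). With the trend removed the sets went in opposite directions, 0.67 in the first and -0.24 in the second (difference adjusted p = 0.000255, second set adjusted p = 0.063), and the pooled value of 0.26 did not pass (SE 0.14, adjusted p = 0.13).

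Slc30a1, which exports zinc across the plasma membrane, was the 1 gene that fell. Vehicle libraries had 52.2, 60.5, 52.7, 59.2 and 54.8 CPM, and PM libraries had 27.3 to 39.1 CPM with a median of 32.2. No library overlapped. The mean fell from 55.9 ± 3.76 to 32.7 ± 4.19 CPM (edgeR log2 fold change -0.76 with SE 0.09 and adjusted p = 5.5e-06). It fell in both sets, by 0.61 and by 0.95 on the log2 scale. Its transcript of 5244 bases is in the longest of the 5 length groups, and after removal of the length and GC trend the change was -0.05 (SE 0.08, adjusted p = 0.62). The gene (chromosome 1, 191906767 to 191913247, plus strand) overlaps the antisense gene 1700034H15Rik, and no source used here gives the strand setting of the counting.

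Slc30a3, the vesicular zinc transporter (chromosome 5, 31086106 to 31108237, minus strand), was 57.0, 58.9, 64.8, 57.2 and 51.3 CPM in vehicle libraries. In PM it was 72.3, 59.98 and 59.96 CPM in replicates 1 to 3 and 70.7, 104 and 70.1 CPM in replicates 4 to 6. PM replicates 2 and 3 lay within the vehicle range and PM replicate 5 stood above all others. The mean was 57.9 ± 4.83 in vehicle and 72.9 ± 16.2 CPM in PM (edgeR log2 fold change 0.31 with SE 0.13 and adjusted p = 0.054). It passed with DESeq2 size factors in edgeR (0.34, adjusted p = 0.031), with the DESeq2 Wald test (0.34, adjusted p = 0.023), without the filter on low counts (0.40, adjusted p = 0.0095), without the set covariate (0.33, adjusted p = 0.044) and on the second set alone (0.61, adjusted p = 0.044). It also passed without vehicle replicate 3 (0.36), PM replicate 2 (0.36), PM replicate 3 (0.36) or PM replicate 6 (0.38). When each of the other 7 libraries was left out in turn, it did not pass. The lowest of these values was 0.20 (adjusted p = 0.070), without PM replicate 5. With the replicate number as block in place of the set, Slc30a3 did not pass (0.31, adjusted p = 0.12). It did not pass on the first set alone (0.19, adjusted p = 0.14). Without the 3 libraries of highest Ttr it did not pass either (0.29, adjusted p = 0.17). After removal of the length and GC trend the direction turned, to -0.30 (SE 0.10, adjusted p = 0.013). Slc30a3 overlaps Dnajc5g on the opposite strand, and reads of the pair cannot be told apart if strand was not used.

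Ferritin counts were higher in PM for both chains, and the light chain had the larger fold change. Ftl1 (chromosome 7, 45457944 to 45459884, minus strand) was 59.9, 44.6, 57.3, 44.5 and 52.9 CPM in vehicle and 207 to 368 CPM in PM libraries, with a median of 242. The lowest PM library was far above the highest vehicle library. The mean went from 51.8 ± 7.10 to 264 ± 60.1 CPM, a 5.15-fold rise (edgeR log2 fold change 2.37 with SE 0.14 and adjusted p = 9.4e-09). By set it was 2.46 and 2.24, and 1.61 with the trend removed (SE 0.12, adjusted p = 1.5e-07). With the trend removed, the sets differed by -0.53 (adjusted p = 0.045).

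Fth1 (chromosome 19, 9980598 to 9985098, plus strand) was 1312, 1509, 1309, 1356 and 1452 CPM in vehicle and 2453 to 4696 CPM in PM libraries, with a median of 2904. All PM libraries were again above all vehicle libraries, and PM replicate 3 was the highest. The mean went from 1388 ± 89.0 to 3138 ± 836 CPM, a 2.27-fold rise (edgeR log2 fold change 1.18 with SE 0.14 and adjusted p = 6.4e-06). With the trend removed the rise was 0.70 (SE 0.12, adjusted p = 0.00017). Ferritin genes have processed pseudogene copies, so how reads were shared with those copies is uncertain. Reads with no unique alignment were 4.21% to 4.75% of all counts in vehicle and 7.22% to 9.90% in PM libraries, and the part of this in the ferritin values was not tested.

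Of the uptake genes, Tfrc (chromosome 16, 32608920 to 32632794, plus strand) was 99.4, 133, 106, 114 and 127 CPM in vehicle and 99.8 to 136 CPM in PM libraries, with a median of 121. The ranges nearly coincided. The means were 116 ± 14.3 and 119 ± 13.9 CPM (edgeR log2 fold change 0.04 with SE 0.10 and adjusted p = 0.72). By set the values were 0.21 and -0.17, and neither passed (adjusted p = 0.088 and 0.23). Fitted on the first set alone, Tfrc passed as higher (0.31, adjusted p = 0.033). The sign of the pooled value turned without vehicle replicate 1 (-0.02) or vehicle replicate 3 (-0.0027). With the trend removed Tfrc was higher in PM, at 0.88 (SE 0.08, adjusted p = 5.3e-07), with 0.93 and 0.81 by set.

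Slc11a2 (chromosome 15, 100387898 to 100425072, minus strand), which carries iron and other divalent metals across membranes, behaved differently in the 2 sets. It was 59.5, 57.8, 56.3, 52.5 and 47.1 CPM in vehicle libraries. PM replicates 1 to 3 had 41.9, 31.4 and 32.9 CPM, below every vehicle library, while PM replicates 4 to 6 had 59.8, 61.9 and 56.9 CPM, above both vehicle libraries of their set. The log2 fold change was -0.71 in the first set (SE 0.11, adjusted p = 1.7e-05) and 0.26 in the second (SE 0.12, adjusted p = 0.071). Fitted on each set alone it passed in both, at -0.61 (adjusted p = 0.00071) and 0.27 (adjusted p = 0.023). The difference of 0.97 passed the test (edgeR adjusted p = 0.00052), as it did for 29.6% of all genes. Slc11a2 was the only one of the 10 to pass this test, but Mt3, Slc30a1 and Tfrc also passed with DESeq2 size factors or with no filter. Without 1 library, Slc30a1 and Tfrc also passed (vehicle replicate 2 left out), as did Mt3, Slc30a3 and Fth1 (PM replicate 1) and Slc30a3 (PM replicate 4). The pooled value of -0.29 did not pass (SE 0.16, adjusted p = 0.12), whereas without vehicle replicate 5 it did (-0.44, adjusted p = 0.023), and with the trend removed it was -0.32 (SE 0.13, adjusted p = 0.044). The gene overlaps Gm5475 on the opposite strand.

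Slc40a1, ferroportin (chromosome 1, 45908068 to 45926523, minus strand), the iron exporter of the cell, had the lowest level per kilobase of the 10 genes. It was 7.92, 8.69, 7.86, 8.83 and 8.35 CPM in vehicle and 9.67 to 15.0 CPM in PM libraries, with a median of 10.4. The groups did not overlap, and PM replicate 1 was the highest. These values rest on 54 to 100 counts per vehicle and 111 to 247 per PM library. The mean went from 8.33 ± 0.437 to 11.3 ± 2.13 CPM (edgeR log2 fold change 0.45 with SE 0.14 and adjusted p = 0.010), and with the trend removed the rise was 0.85 (SE 0.14, adjusted p = 0.00015). It no longer passed without the 3 libraries of highest Ttr (0.36, SE 0.16, adjusted p = 0.073) or on the second set alone (0.39, adjusted p = 0.076).

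**Figure D2:**
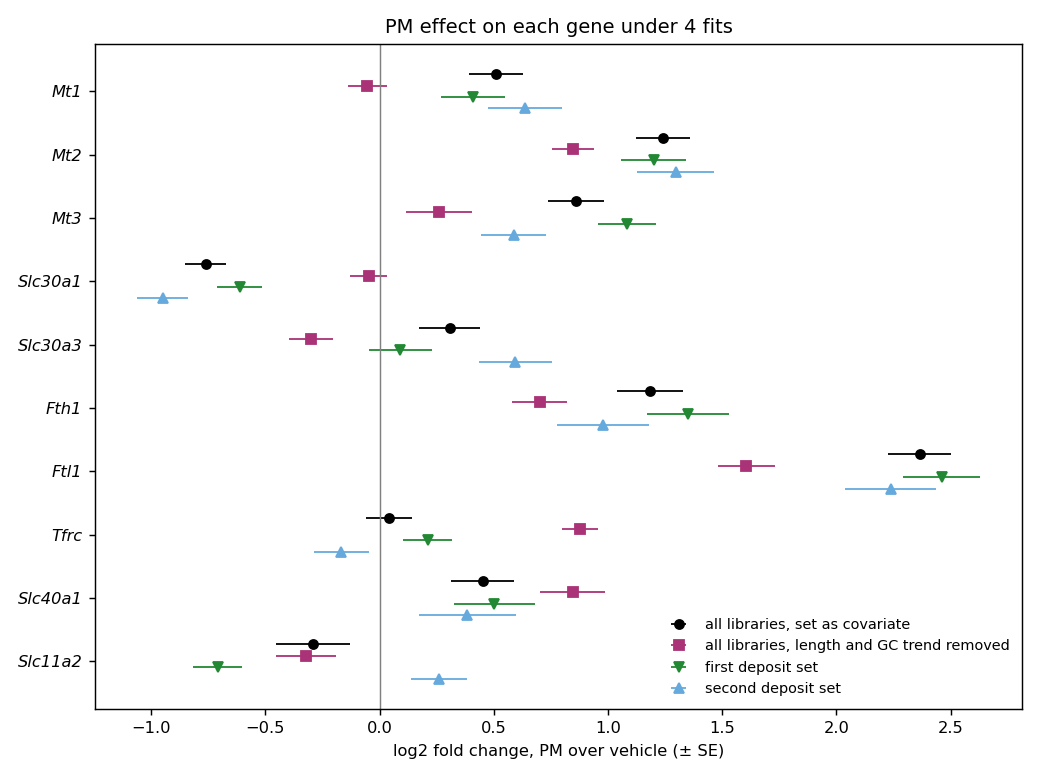
Log2 fold change of PM over vehicle with its standard error for each gene, from all libraries (black circles), from all libraries after removal of the length and GC trend (purple squares), and within the first (green) and second (blue) deposit set. Mt2, Fth1, Ftl1 and Slc40a1 lie above 0 under all 4 fits, Mt1 and Slc30a1 move to -0.05 with the trend removed, and Slc11a2 by set is -0.71 and 0.26.

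Ratios of a pair of genes within a library do not depend on its scaling. The 5 pairs were chosen after the values above were seen, so they are given with no test. Mt2 counts per Mt1 count were 0.381 to 0.453 in vehicle and 0.626 to 0.713 in PM libraries, with means of 0.408 ± 0.0318 and 0.672 ± 0.0310. The 2 genes sit side by side in the genome with transcripts of 511 and 549 bases, and this ratio did not overlap between groups. Ftl1 counts per Fth1 count were 0.0296 to 0.0456 in vehicle and 0.0783 to 0.0912 in PM libraries. Fth1 thus had more counts than Ftl1 in every library, with transcripts of 929 and 968 bases. How reads were shared with pseudogene copies is uncertain for both genes, and its part in this ratio was not tested. Tfrc counts per Fth1 count fell from 0.0834 ± 0.00526 to 0.0393 ± 0.00766, and Slc30a3 counts per Slc30a1 count went from 1.04 ± 0.122 to 2.27 ± 0.644, both without overlap. Transcripts of these last pairs differ more in length, at 4890 against 929 bases and 2089 against 5244 bases. After removal of the length and GC trend both log2 differences turned, from -1.10 to 0.18 for Tfrc to Fth1 and from 1.09 to -0.25 for Slc30a3 to Slc30a1. Those of Mt2 to Mt1 and Ftl1 to Fth1 kept their direction, at 0.90 each. The remaining ratio, of Mt3 to Mt1, was 1.26 ± 0.257 in vehicle and 1.602 ± 0.188 in PM libraries and overlapped, with a log2 difference of 0.67 and -0.04 by set.

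**Figure D3:**
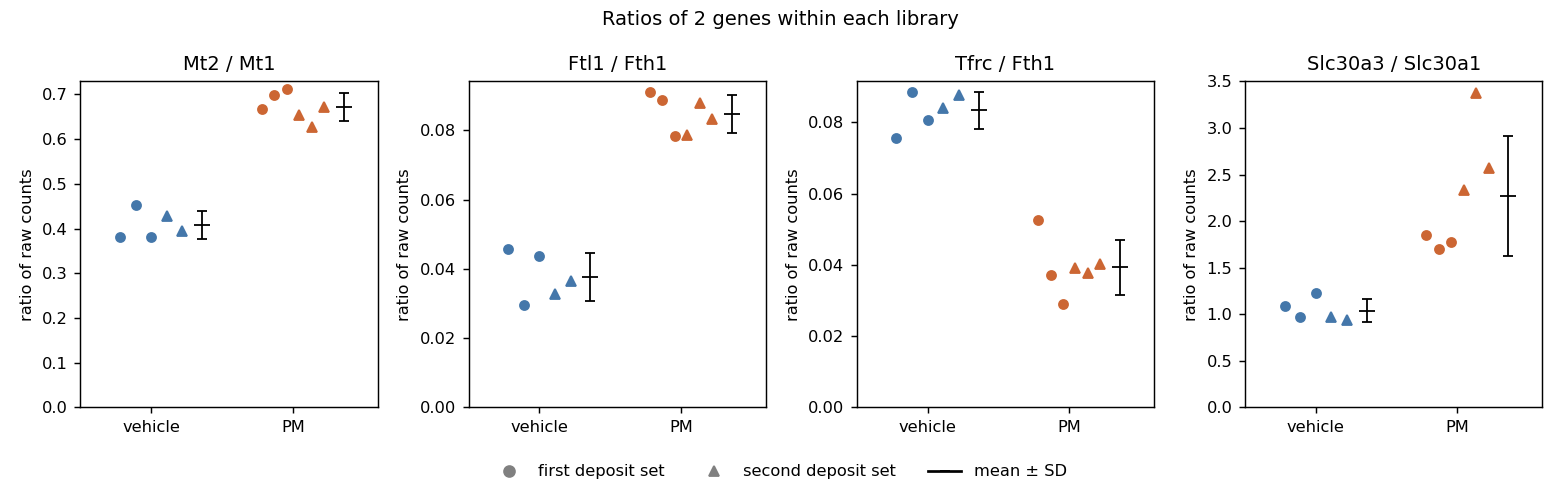
Ratio of raw counts of 2 genes within each library for 4 of the 5 pairs (linear axes from 0), with vehicle in blue, PM in orange, circles and triangles for the first and second deposit set, and bars for the mean ± SD. In each of these 4 pairs the groups do not overlap, for instance 0.381 to 0.453 against 0.626 to 0.713 for Mt2 to Mt1.

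Levels per kilobase divide CPM by transcript length and allow for no other difference between genes. Effects of GC content and of reads shared with ferritin pseudogene copies remain, so the order is approximate. In vehicle libraries Fth1 was highest, at 1494 ± 95.9 CPM per kb (SD, n = 5), followed by Mt3 at 470 ± 29.6, Mt1 at 372 ± 58.4 and Mt2 at 162 ± 21.2. Ftl1 came next at 53.5 ± 7.34, then Slc30a3 at 27.7 ± 2.31, Tfrc at 23.7 ± 2.93, Slc11a2 at 18.1 ± 1.63, Slc30a1 at 10.7 ± 0.718 and Slc40a1 at 2.47 ± 0.130 CPM per kb. Of these neighbours, Mt3 and Mt1 overlapped in range, as did Slc30a3 and Tfrc. In PM libraries Fth1 stayed highest, at 3378 ± 900 CPM per kb, and Ftl1 reached 273 ± 62.1, closer to Mt2 at 375 ± 73.8.

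Genes whose levels varied most alike across libraries were sought for Mt2 and Slc30a3 after the mean of each combination of group and set was subtracted. The likeness is a correlation over 11 libraries among 10106 genes, and the points share depth and composition. Subtracting the means leaves fewer independent points than 11. The highest of 10106 such correlations can be large by chance alone, and how large was not tested. The genes named here are therefore a ranking, and their r values do not show a link with Mt2 or Slc30a3. For Mt2 the closest were Apod (r = 0.983), Sec61g (r = 0.982), Dync1li2 (r = 0.977) and Rpl19 (r = 0.976). For Slc30a3 they were Mfsd4 (r = 0.960), Jph1 (r = 0.960), Cyth1 (r = 0.952), Dsp (r = 0.951) and Epha10 (r = 0.940). Among the 10 genes on the same measure, Mt3 and Fth1 had r = 0.958, Mt1 and Mt2 r = 0.911, and Slc40a1 and Slc11a2 r = 0.906.

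Other zinc genes, the remaining Slc30 exporters, the Slc39 (ZIP) importers, Mt4 and the sensor Mtf1, were as often higher as lower before the trend was removed. Of 24 listed, 21 were tested, and 6 were higher, 6 lower and 9 not past the test, with a median log2 fold change of -0.09 against -0.04 for all genes, of which 32.7% were higher and 36.4% lower. After removal of the length and GC trend 12 were higher and 3 lower, with a median of 0.53 against 0.10 for all genes, of which 37.3% were higher and 26.7% lower. Slc39a7, which releases zinc from the endoplasmic reticulum and Golgi, was 20.9 to 26.97 CPM in vehicle and 71.7 to 90.8 CPM in PM libraries (edgeR log2 fold change 1.71 with SE 0.09 and adjusted p = 5.6e-09). Slc39a3, a ZIP importer, rose by 1.20 and Slc39a11, another ZIP member, by 0.85, and for these 3 genes no library overlapped. They stayed past the test once the trend was removed, at 1.23, 0.84 and 0.66. Slc30a9 rose by 0.41 with overlap, and its value was 1.27 with the trend removed.

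On the falling side, Slc30a7, which moves zinc into the Golgi, went from 40.6 ± 2.04 to 16.2 ± 1.24 CPM (edgeR log2 fold change -1.32 with SE 0.08 and adjusted p = 1.7e-08), and Slc39a1, a plasma membrane importer, from 65.0 ± 11.03 to 34.1 ± 2.78 CPM. Slc39a10 fell by 0.75 and Mtf1 by 0.42 on the log2 scale. Mtf1, the sensor behind Mt1 and Mt2 induction, was 40.5 to 48.1 CPM in vehicle and 29.8 to 35.5 CPM in PM libraries, without overlap. Removing the trend left Slc39a1 lower (-1.13), brought Slc30a7 to -0.01 and Slc39a10 to 0.07, and turned Mtf1 to 0.53 (adjusted p = 8.6e-06).

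Of 34 listed iron and heme genes, 26 were tested, and 10 were higher, 6 lower and 10 not past the test, with a median log2 fold change of 0.25 against -0.04 for all genes. The share higher is near the 32.7% of all genes, of which 36.4% were lower. With the trend removed 11 were higher and 1 lower, with a median of 0.20 against 0.10, where 37.3% of all genes were higher and 26.7% lower. Hamp, the hepcidin gene, and Ftmt, mitochondrial ferritin, were among the 8 not tested, and Flvcr1 and Flvcr2 had no row of that name. Iscu and Nfs1, which build iron-sulfur clusters, rose by 1.01 and 0.89. Hmox2, the constitutive heme oxygenase, rose from 26.8 ± 1.24 to 45.3 ± 6.43 CPM (edgeR log2 fold change 0.77 with SE 0.09 and adjusted p = 3.8e-06), and the heme transporter Slc48a1 by 0.74. All 4 were without overlap and past the test with the trend removed, at 0.38 to 0.71.

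Ireb2, the iron regulatory protein 2 that binds the stem-loops shown above, fell from 98.2 ± 9.24 to 63.5 ± 10.2 CPM (edgeR log2 fold change -0.62 with SE 0.10 and adjusted p = 7.6e-05). It turned to 0.40 with the trend removed (adjusted p = 0.00018). Aco1, which encodes iron regulatory protein 1, was 31.6 ± 2.77 and 28.7 ± 2.23 CPM and did not pass (log2 fold change -0.14, adjusted p = 0.17, and -0.03 with the trend removed). The ferrireductases Cybrd1 and Steap2 fell by 1.05 and 1.29, and Slc25a37, the mitochondrial iron importer mitoferrin 1, by 0.71. None of these last 3 passed with the trend removed, at -0.36, 0.28 and -0.32. By set Slc25a37 was -1.10 and -0.19 (difference adjusted p = 0.0022, edgeR).

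**Figure D4:**
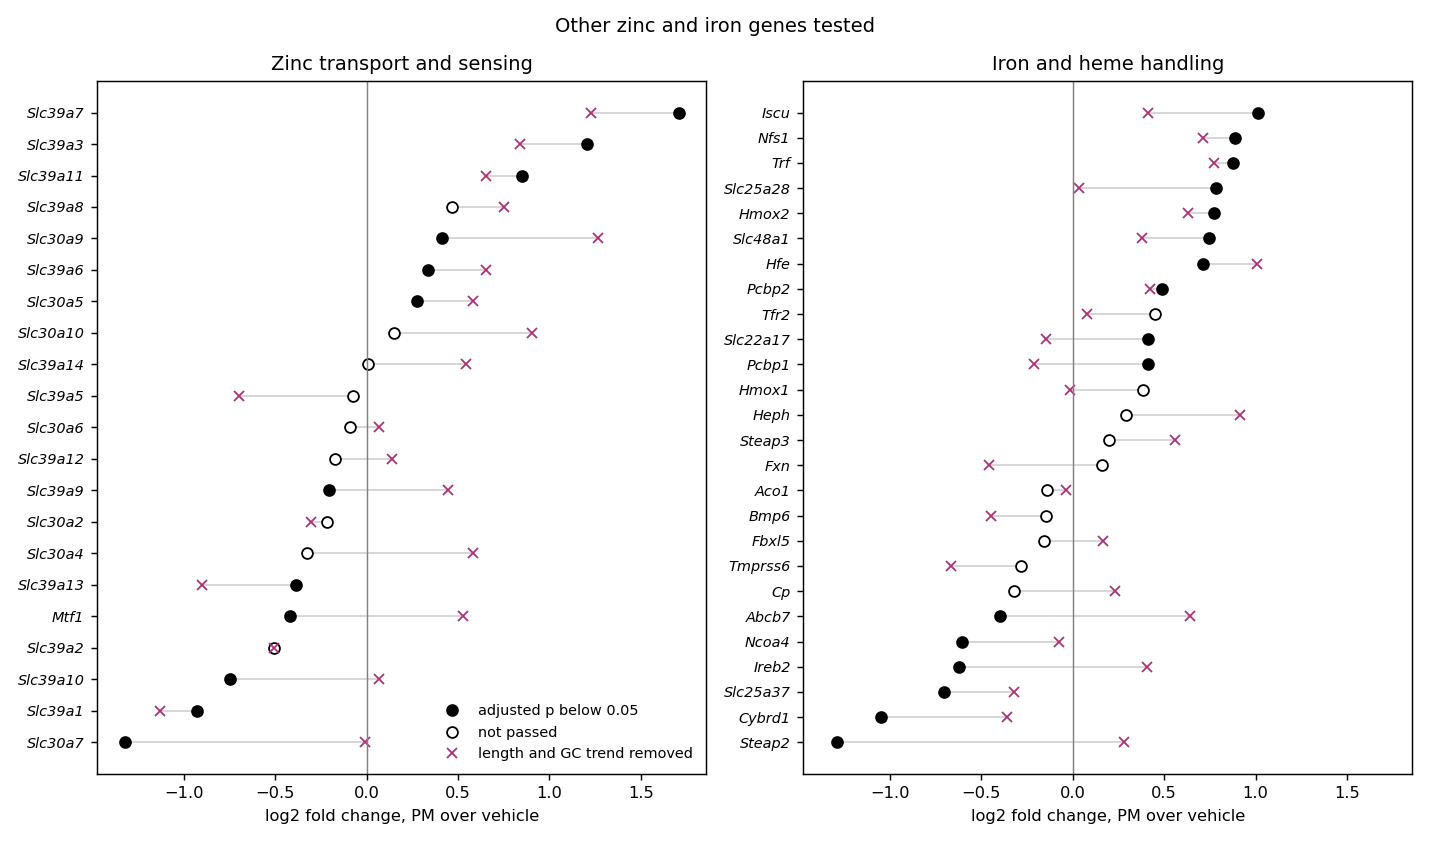
Log2 fold change of PM over vehicle for the 21 zinc and 26 iron genes tested, with filled circles for genes past the test, open circles for the others and purple crosses for the value after removal of the length and GC trend. Grey lines join both values of a gene, and Mtf1 and Ireb2 cross 0.

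Cell type markers moved with the groups too. Astrocytes are a main source of Mt1 and Mt2, and of 8 astrocyte markers 4 (Gfap, Aldh1l1, Aldoc and S100b) were higher and 2 (Slc1a2 and Aqp4) lower in PM. Once the trend was removed, 6 were higher and none lower, and Slc1a2 turned from -1.16 to 0.32 (adjusted p = 0.059) and Aqp4 from -0.47 to 0.35. Their summed level was 7206 to 7628 CPM in vehicle and 3642 to 6527 CPM in PM libraries, a sum led by Slc1a2. Oligodendrocytes are rich in ferritin and transferrin, and 5 of their 6 markers were higher, with sums of 3734 to 4751 and 4047 to 9299 CPM. Of 6 markers each, 4 of microglia were higher (sums 163 to 185 and 199 to 281 CPM) and 3 of endothelium (142 to 171 and 159 to 294 CPM). Once the trend was removed, 5 markers of each of these 3 cell types were higher. Of all genes, 32.7% were higher and 36.4% lower, and 37.3% and 26.7% with the trend removed. Of 3 dentate granule neuron markers, the cells whose mossy fibres hold Slc30a3, C1ql2 was higher, Prox1 lower and Dsp not past the test, and with the trend removed C1ql2 and Dsp were higher (0.45 and 0.79) and Prox1 lower (-0.84). Their sums were 191 to 276 CPM in vehicle and 139 to 225 CPM in PM libraries. Of 3 pyramidal neuron markers, Fibcd1 was higher (0.42) and Neurod6 lower (-0.72). Of 5 markers of neurons in general, Slc17a7 and Rbfox3 were higher (0.57 and 0.27) and Gad2 lower (-1.21). With the trend removed, Fibcd1 stayed higher (0.32) and Neurod6 lower (-0.47). Of the general neuron markers Snap25 was then higher (0.19) and Gad2 lower (-0.34), and Slc17a7 and Rbfox3 no longer passed. The part of these cell types in the values of the 10 genes was not tested. The rows of the haemoglobin genes Hba-a1, Hba-a2, Hbb-bs and Hbb-bt held 0 in every library. This does not show that globin RNA was absent, because how reads of similar gene copies were counted was not tested. Alas2, the heme synthesis enzyme of red cell precursors, was detected and fell from 16.0 to 5.33 CPM without overlap (edgeR log2 fold change -1.60 with SE 0.28 and adjusted p = 0.00017, and -1.88 with the trend removed). For Mt1, Mt2, Mt3, Fth1, Ftl1 and Slc30a1 the log2 fold changes were 0.56, 1.26, 0.86, 1.21, 2.47 and -0.77 without the 3 libraries of highest Ttr. Without them 5 of the 10 genes were higher and 1 lower, as were 4 and 4 of the zinc and 11 and 6 of the iron genes, beside 30% and 30.2% of all genes.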

How the data were processed

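RNA of mouse hippocampus was sequenced in 11 libraries. The files hold raw counts for each gene symbol, deposited without scaling by the authors. The submitters' processing notes name FastQC 0.11.9, Trimmomatic 0.36, STAR, Picard 2.9.2, SAMtools 1.9 and HTSeq 0.9.1, and the builds mm10 and hg19. No source used here gives the strand setting. Ribosomal RNA was depleted per the labels' protocols, while the labels' molecule field names polyA RNA. HTSeq summary rows stayed out of library sizes and tests. A count of 0 allows up to 3 counts, which is 0.169 to 0.499 CPM by library, for counting error only.

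Counts were filtered with filterByExpr (minimum count 10), TMM-scaled and tested by edgeR 4.0.16 (robust quasi-likelihood, two-sided, set as covariate, adjusted p threshold 0.05) in R 4.3.3. Effects by set came from a joint fit of the 4 group-by-set combinations. CPM is given as mean ± SD. For the alternative with the trend removed, natural splines (5 degrees of freedom each) of log2 CPM on transcript length and GC were subtracted per library. Transcripts came from GENCODE M21 (1 per symbol, by APPRIS principal status, support level, coding status, then length), which matched 95.7% of symbols. This order, the use of 300-base as well as 250-base promoter windows, and the absolute difference as permutation statistic were settled after values had been seen. DESeq2 1.42.0 gave alternatives. The steps were tested on simulated counts in which few genes changed, as many up as down, with no length or GC trend put in. That does not check the scaling or the trend removal under changes as broad as those seen here.

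The members and lists were chosen with earlier results of these data known. Named list genes are the 4 of smallest p per direction. Genes most like Mt2 and Slc30a3 are the 5 with the highest correlation of log2 CPM (prior count 2) among genes with a mean of at least 10 CPM. Of these, 1 is not reported here. Aco1, Hamp, Ftmt and single cell type markers were named outside that rule, after their values were seen. Leaving out the 3 libraries of highest Ttr was added after seeing the data. Protein sequences were not used here.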

Additional observations from a re-analysis of the deposited data

Results flagged for a closer look

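Slc30a3 in PM replicate 5 was 104 CPM, against 59.96 to 72.3 CPM in the other 5 PM libraries. Its gap to the nearest library, relative to the range of the group, was above Dixon's critical value, which chance exceeds in about 1 in 20 groups. The cause was not tested.

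The PM effect on Slc11a2 differed between the deposit sets by 0.97 on the log2 scale (edgeR adjusted p = 0.00052), with -0.71 in the first and 0.26 in the second. The vehicle libraries of the second set had 2422 and 2278 CPM of Xist, against 0.668, 0.582 and 919 CPM in its PM libraries and at most 3.16 CPM in the vehicle libraries of the first set. The part of this in the Slc11a2 values was not tested.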

How the results depend on the processing

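The 10 log2 fold changes were recomputed under 20 other settings each. Of these 200 values, 176 kept their direction and side of the threshold, 5 no longer passed, 16 newly passed and 6 changed sign, some of which are also among those that crossed the threshold. With the length and GC trend removed, Mt1 was -0.053 and Slc30a3 -0.30, 2 of the 10 genes were lower in PM, zinc genes were 12 higher and 3 lower, and 1 iron gene was lower. On the first set alone 2 of the 10 genes were lower and Tfrc passed at 0.31. On the second set alone Tfrc was -0.16 and did not pass, and Slc11a2 passed at 0.27. Of the 10 genes, those whose PM effect differed between sets numbered 4 with DESeq2 size factors, 4 with no filter and 3 with the trend removed. In the main fit the number was 1, where 29.6% of all genes passed. The share of all genes under the other settings is not given here, so these numbers say nothing particular to the 10 genes. Leaving out 1 library at a time gave 6 to 7 genes higher, 1 to 2 lower, 1 to 4 differing between sets, a Tfrc value of -0.024 to 0.13, and a difference in the no-feature share of -36.9 to -33.9 percentage points. The cause of these changes was not tested.

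Numbers in the titles did not pair the libraries, with correlations of same-numbered deviations of -0.01, -0.03, -0.12, -0.18 and -0.12. With the replicate block in place of the set, 6 genes were higher and 1 lower, as without it, and 4318 and 4890 of all genes. Depth limits Slc40a1 most, with 54 counts in its shallowest library.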
